A study of Mus musculus with 6 samples.

Results

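The genes described here store iron inside the cell and sense how much of it is present. They are 8 genes chosen by symbol, all found among the 14327 genes of a table of transcript levels: the ferritin chains Fth1 and Ftl1, the ferritin receptor Ncoa4, the iron chaperones Pcbp1 and Pcbp2, the iron regulatory proteins Aco1 and Ireb2, and Fbxl5. The levels came from 6 RNA sequencing libraries of neurospheres, balls of neural stem and progenitor cells that grow in suspension. The cells had been taken from the hippocampus of mice at postnatal day 0 and grown in DMEM-F12 with B27, N2, EGF and bFGF. Of the libraries, 3 carry the label conditional knockout (cKO) for Slc22a17, the gene of a receptor that takes up the iron-binding protein lipocalin 2, and 3 are wild type (WT). Neither labels nor file name the Cre driver, the deleted exons, the strain or the sex of the mice. Whether a group's libraries came from separate animals or cultures is not stated either, so a p-value here reflects only how far these libraries scatter, and that scatter may be technical.

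Free iron is reactive, and cells keep the surplus in ferritin, a hollow protein shell built from heavy chains, which oxidise the iron, and light chains, which help it to form a mineral core. The chaperones PCBP1 and PCBP2 hand iron to ferritin, and NCOA4 carries ferritin to the lysosome, where its iron is released. Aco1 encodes IRP1, an enzyme that loses its iron-sulfur cluster when iron is scarce and then binds RNA. Ireb2 encodes IRP2, which the ubiquitin ligase subunit FBXL5 removes when iron is plentiful. The iron regulatory proteins bind a hairpin, the iron-responsive element. In the leader of the ferritin mRNAs this binding blocks translation, and in the tail of the transferrin receptor mRNA it protects the transcript from decay. Ferritin protein can therefore change without its mRNA, and these libraries measured mRNA only.

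The elements of both ferritin chains are shown because they are where the sensors among these genes meet the storage genes. They were read from GENCODE M21 transcripts (GRCm38), 5′ to 3′, with T for U, as the loop CAGTGN (capitals), a C 6 bases before it and 5 paired bases on either side of it (G-T pairs allowed). The first element of the transferrin receptor gene Tfrc stands beside them for comparison.
Fth1: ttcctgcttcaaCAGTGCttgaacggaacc
Ftl1: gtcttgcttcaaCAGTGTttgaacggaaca
Tfrc: aattatcggaagCAGTGCcttccataatta
The Fth1 element lies in the 5′ untranslated region at chr19:9982732-9982761 (+ strand), and the Ftl1 element in the 5′ untranslated region at chr7:45459778-45459807 (- strand). They were identical at 26 of 30 bases. The Tfrc element lies in the 3′ untranslated region at chr16:32631219-32631248 (+ strand) and was 1 of 4 matches there. Of the 8 genes, only Fth1 and Ftl1 held such an element in a 5′ untranslated region, as did 27 of 21875 protein-coding genes (0.123%), and none of the 8 held it in a 3′ untranslated region, where 0.576% of genes did.

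The values are FPKM, fragments per kilobase of transcript scaled to the mapped fragments of each library, so that levels can be compared between genes. FPKM carries no read totals, and the depth of the libraries is unknown. Genes averaging 1 FPKM or more, 11596 in all, were tested together by limma on log2(FPKM + 1), and all 8 genes were among them. Slc22a17 itself measured 164, 166 and 187 FPKM in the libraries labelled cKO and 181, 169 and 204 FPKM in WT. The target transcript was thus still present in the libraries labelled cKO, and every direction below is one between libraries with these labels. Transcripts of the Y-linked genes Ddx3y and Eif2s3y, expressed in male cells, summed to 43.8 to 51.2 FPKM in the libraries labelled cKO, to 25.9 FPKM in WT replicate 3 and to at most 0.10 FPKM in WT replicates 1 and 2, and the group and this difference cannot be told apart over all 6 libraries. Neural stem cell markers (Nes, Sox2, Vim, Fabp7, Slc1a3, Pax6, Hes1 and Msi1) summed to 3586 to 3885 FPKM in the libraries labelled cKO and to 3882 to 4075 FPKM in WT. Of the endothelial markers only Kdr was in the table, at 0.08 FPKM or less.

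The genes spanned a wide range of levels, and their order was the same in every library. Fth1 stood highest, at 1970 to 3226 FPKM over the 6 libraries, followed by Ftl1, Pcbp2, Pcbp1, Ncoa4, Aco1, Ireb2 and, lowest, Fbxl5 at 14.1 to 15.6 FPKM. The ranges of neighbours in this order did not overlap for any of the 7 pairs. The closest pair was Pcbp2 and Pcbp1, where the lowest Pcbp2 value was 147 FPKM and the highest Pcbp1 value 141 FPKM. Fth1 ranked 6th to 10th among all genes of the table in the libraries labelled cKO and 11th or 12th in WT, and Ftl1 ranked 29th to 37th in the libraries labelled cKO and 40th to 47th in WT.

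None of the 8 genes passed an adjusted p of 0.05 in limma, where 0.0259% of all tested genes did. These were 3 genes, Hmox1 higher in the libraries labelled cKO (0.00862% of those tested) and Cdon and Ifitm3 lower (0.0172%). At an unadjusted p under 0.05 there was 1 of the 8, Ftl1, which was higher, against 12.3% of all tested genes in either direction and 4.44% higher. A log2 fold change of at least that of Fth1 was found for 1.84% of all tested genes. This bound was taken from Fth1 itself, so a count of the 8 genes against it is no test. The values of the groups did not overlap for 2 of the 8, Fth1 and Ftl1, both higher in the libraries labelled cKO. Of all tested genes 17.2% did not overlap, 7.07% higher and 10.2% lower. The median log2 fold change (labelled cKO minus WT) over the 8 genes was 0.0053, with 4 higher and 4 lower, and over all tested genes it was -0.015, with 44.5% higher.

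**Figure D1:**
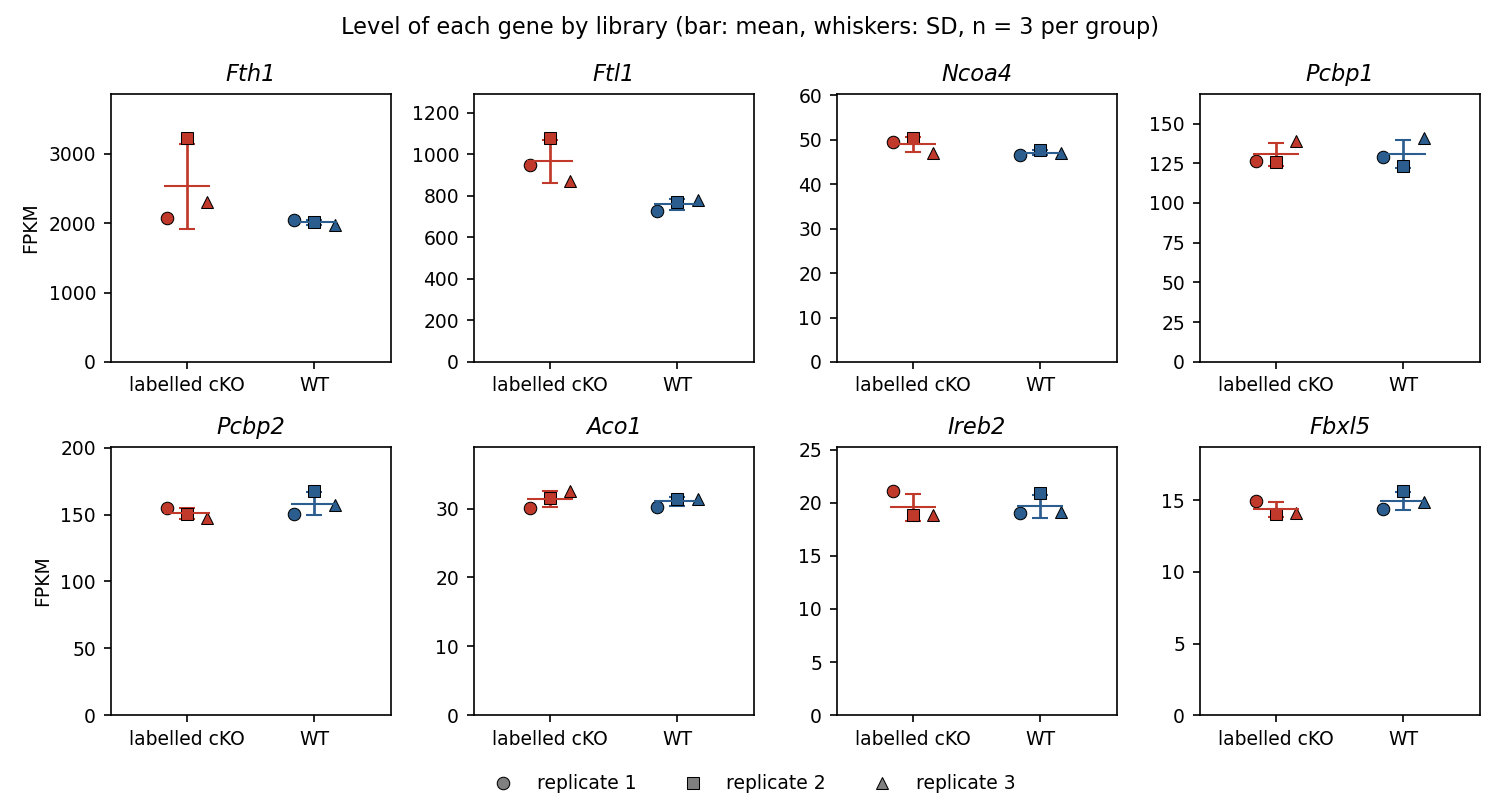
FPKM of the 8 genes (y axes, each from 0) in the 3 libraries labelled cKO (left, red) and the 3 WT libraries (right, blue), with the mean and SD of each group and a symbol for each replicate number. For Fth1 and Ftl1 every library labelled cKO exceeded every WT library, and the groups overlapped for the other 6 genes.

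The light chain gene Ftl1 (gene identifier 14325, chromosome 7, 45457944 to 45459886 in GRCm38) measured 948, 1076 and 870 FPKM in the libraries labelled cKO, against 728, 767 and 778 FPKM in WT. Each of the libraries labelled cKO exceeded every WT library, and the lowest of them was replicate 3. The means were 965 ± 104 FPKM in the libraries labelled cKO and 758 ± 26.3 FPKM in WT (SD, n = 3 each). Its log2 fold change of 0.34 (SE 0.096) did not pass in limma (adjusted p = 0.238, unadjusted p = 0.00664). Relative to WT the fit gave 127%, and its unadjusted 95% interval ran from 109% to 148%. An exact two-sided permutation test of the 6 values gave p = 0.1, the smallest that 3 against 3 libraries can give. With any single library left out the log2 fold change of Ftl1 lay between 0.26 and 0.42.

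The heavy chain gene Fth1 (gene identifier 14319, chromosome 19, 9980600 to 9985111) measured 2075, 3226 and 2301 FPKM in the libraries labelled cKO, against 2046, 2018 and 1970 FPKM in WT. The groups did not overlap, but replicate 1 of the libraries labelled cKO lay close above the highest WT library and replicate 2 lay far above all others. The means were 2534 ± 610 FPKM in the libraries labelled cKO and 2011 ± 38.2 FPKM in WT (SD, n = 3 each). Its log2 fold change of 0.31 (SE 0.16) did not pass in limma (adjusted p = 0.483), and the exact two-sided permutation test gave p = 0.1. Relative to WT the fit gave 124%, and its interval ran from 95.8% to 159.8%. The fold change rested on cKO replicate 2: without it the log2 fold change was 0.12 (adjusted p = 0.702 in limma). With the share of Y-linked transcripts in the fit it was 0.59 (adjusted p = 0.921 in limma).

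Fth1 was steady in WT and variable in the libraries labelled cKO, where replicate 2 (3226 FPKM) stood far above replicates 1 and 3 (2075 and 2301 FPKM). Its coefficient of variation was 24.1% in the libraries labelled cKO, which 5.23% of tested genes exceeded, and 1.90% in WT, which 7.09% of tested genes undercut. For Ftl1 it was 10.8% in the libraries labelled cKO and 3.48% in WT. The medians over all tested genes were 7.38% in the libraries labelled cKO and 6.59% in WT. The difference in spread between the groups was not tested.

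Among WT libraries, replicate 3 alone had Y-linked transcripts, and it was the lowest of them for Fth1 and the highest for Ftl1. Against WT replicate 3 alone the log2 fold change was 0.30 for Ftl1 and 0.34 for Fth1, about as large as against all 3 WT libraries. With it left out they were 0.36 for Ftl1 and 0.29 for Fth1. Ferritin is also abundant in microglia, and the 10 microglia markers, all in the table, summed to 10.2, 23.5 and 24.4 FPKM in the libraries labelled cKO and to 18.7, 20.3 and 17.9 FPKM in WT. The lowest sum was in cKO replicate 1, the library labelled cKO with the lowest Fth1 level and the middle Ftl1 level. Over the 6 libraries the single markers ran from 0.10 FPKM (Itgam) to 6.76 FPKM (C1qa). P2ry12 was at 0.40 to 0.59 FPKM, Tmem119 at 0.25 to 1.02 FPKM, Cd68 at 2.34 to 4.68 FPKM and C1qb at 1.96 to 5.14 FPKM, and none was at 0. The part of microglia in the ferritin values was not tested. In bulk RNA a change in the number of cells of a type and a change in RNA per cell cannot be told apart.

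**Figure D2:**
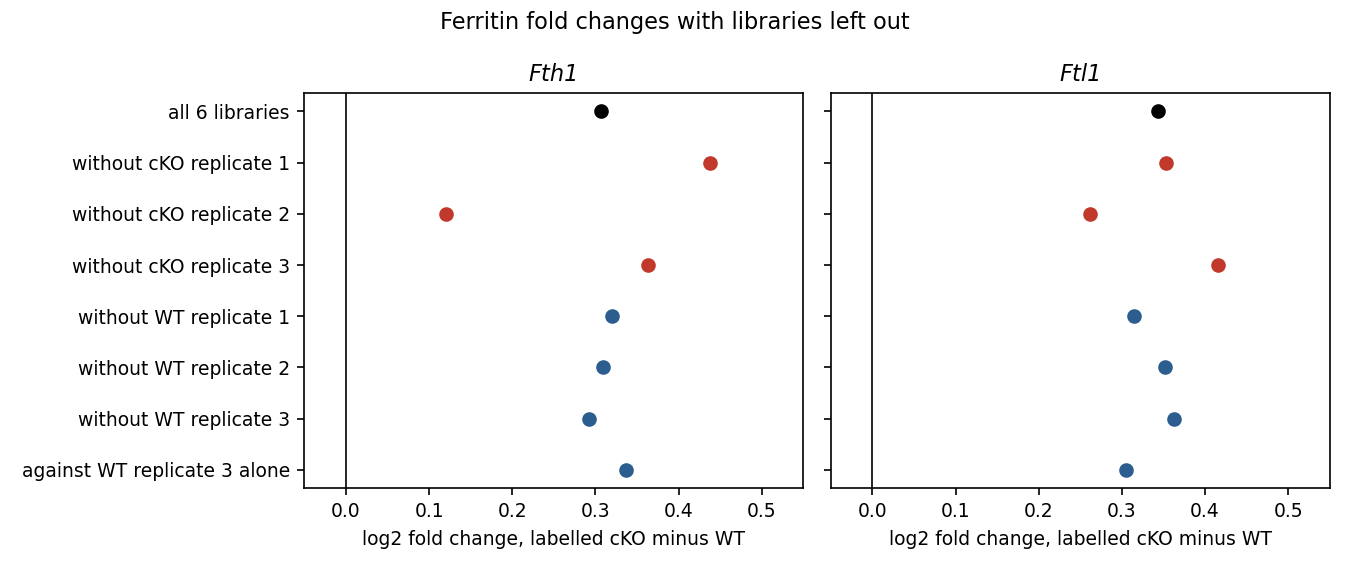
Log2 fold change (labelled cKO minus WT, x axes) of Fth1 and Ftl1 with all 6 libraries (black), without each library in turn (red for libraries labelled cKO, blue for WT) and against WT replicate 3 alone. Fth1 was at 0.12 without cKO replicate 2, while Ftl1 was at 0.26 or above in each case.

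Summed, the ferritin transcripts reached 3024, 4302 and 3171 FPKM in the libraries labelled cKO and 2774, 2785 and 2748 FPKM in WT. The 3 WT libraries lay within a narrow band, and all 3 libraries labelled cKO lay above it. Ferritin made up 0.738%, 1.02% and 0.752% of all FPKM of the table in the libraries labelled cKO and 0.666%, 0.670% and 0.647% in WT. The log2 difference of the sum was 0.32, 1.25-fold, with an exact two-sided permutation p of 0.1 (adjusted p = 0.25 over the 5 sums and ratios tested), and without cKO replicate 2 it was 0.16.

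The balance of heavy to light chain transcripts overlapped between the groups. How readily the shell oxidises iron depends on the balance of the chain proteins, which were not measured. Fth1 over Ftl1 was 2.19, 3.00 and 2.65 in the libraries labelled cKO and 2.81, 2.63 and 2.53 in WT. The WT values lay inside the range of the libraries labelled cKO, whose replicate 1 was the lowest and replicate 2 the highest of all 6. The means were 2.61 ± 0.41 in the libraries labelled cKO and 2.66 ± 0.14 in WT (SD, n = 3 each; exact two-sided permutation p = 0.9, adjusted p = 0.9 over the 5 sums and ratios).

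**Figure D3:**
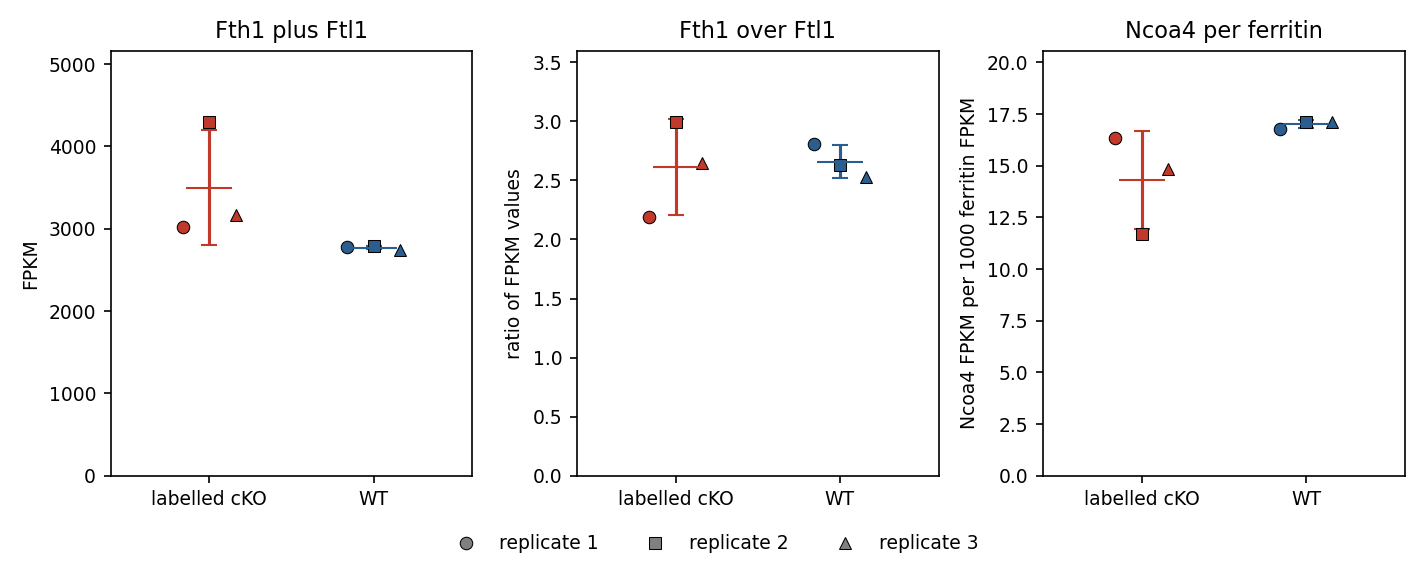
The summed ferritin level (left, FPKM), Fth1 over Ftl1 (middle, ratio) and Ncoa4 per 1000 FPKM of ferritin (right) in each library, with the mean and SD of the 3 libraries labelled cKO (red) and the 3 WT libraries (blue). In every library labelled cKO the sum was above, and Ncoa4 per ferritin below, all WT values, and the chain ratios overlapped.

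Ncoa4 (gene identifier 27057, chromosome 14, 32159879 to 32179855), the receptor that delivers ferritin to lysosomes, held nearly the same level in all libraries. It measured 49.4, 50.4 and 47.1 FPKM in the libraries labelled cKO, against 46.6, 47.7 and 47.1 FPKM in WT. The groups overlapped, since cKO replicate 3 stood below WT replicates 2 and 3. The log2 fold change was 0.054 (SE 0.052, adjusted p = 0.734 in limma), and the interval of the fitted level was 95.5% to 113% of WT. Ncoa4 per 1000 FPKM of ferritin was 16.4, 11.7 and 14.8 in the libraries labelled cKO and 16.8, 17.1 and 17.1 in WT. It was lower in 3 of 3 libraries labelled cKO (log2 difference -0.26). The exact two-sided permutation test gave p = 0.1 (adjusted p = 0.25 over the 5 sums and ratios), and without cKO replicate 2 the difference was -0.13. Since Ncoa4 itself was nearly flat, this ratio largely mirrors the ferritin sum and is no separate result on Ncoa4.

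Other genes of ferritin turnover and autophagy had small positive fold changes for 15 of 19 tested members, and none passed the test. Over all tested genes 44.5% were higher and 0.0259% passed. The members' median log2 fold change was 0.096, against -0.015 over all tested genes. Map1lc3b, the autophagosome protein LC3B, averaged 122 ± 2.31 FPKM in the libraries labelled cKO and 102 ± 9.99 FPKM in WT (log2 fold change 0.26, adjusted p = 0.248 in limma). The autophagy receptor Sqstm1 averaged 113 ± 6.16 FPKM in the libraries labelled cKO and 97.7 ± 5.60 FPKM in WT (log2 fold change 0.21). The lysosomal membrane protein Lamp1 averaged 443 ± 17.1 FPKM in the libraries labelled cKO and 378 ± 35.2 FPKM in WT (log2 fold change 0.23). For each of these 3 genes the groups did not overlap, as for 6 of the 19 members and 17.2% of all tested genes.

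The chaperone gene Pcbp1 (gene identifier 23983, chromosome 6, 86524480 to 86526189) measured 127, 126 and 139 FPKM in the libraries labelled cKO, against 129, 124 and 141 FPKM in WT. In both groups replicate 3 stood highest, and the group means were 131 ± 7.35 FPKM in the libraries labelled cKO and 131 ± 8.84 FPKM in WT (SD, n = 3 each). The log2 fold change was -0.0040 (SE 0.071, adjusted p = 0.989 in limma), with an interval of 89.2% to 112% of WT. With the share of Y-linked transcripts in the fit it was -0.26 (adjusted p = 0.921 in limma).

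Pcbp2 (gene identifier 18521, chromosome 15, 102470450 to 102500068) measured 155, 150.4 and 147 FPKM in the libraries labelled cKO, against 150.1, 167 and 157 FPKM in WT. The groups overlapped only through WT replicate 1. The log2 difference of Pcbp2 was -0.065 (SE 0.062, adjusted p = 0.726 in limma), and the interval was 86.7% to 105% of WT. Pcbp1 over Pcbp2 averaged 0.866 ± 0.068 in the libraries labelled cKO and 0.831 ± 0.082 in WT (exact two-sided permutation p = 0.6). Pcbp1 is an intronless relative of Pcbp2, and reads that fit both genes could have been divided between them in counting. In the reference annotation (GENCODE M21) the protein-coding gene Map3k12 overlaps Pcbp2 on the opposite strand, as the protein-coding gene Bst1 overlaps Fbxl5.

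Of 9 tested relatives and partners of the chaperones 1 was higher and 8 lower, none past the threshold, and their median log2 fold change was -0.070. Of all tested genes 44.5% were higher and 0.0259% passed, with a median of -0.015. Pcbp4, a relative of the chaperones, averaged 35.3 FPKM in the libraries labelled cKO and 36.6 FPKM in WT. Dohh, an iron enzyme that modifies a translation factor and receives its iron from these chaperones, averaged 21.1 ± 0.60 FPKM in the libraries labelled cKO and 23.1 ± 2.02 FPKM in WT (log2 fold change -0.12, adjusted p = 0.538 in limma). P4hb, the protein disulfide isomerase that is also a prolyl hydroxylase subunit, averaged 123 ± 1.59 FPKM in the libraries labelled cKO and 129 ± 3.34 FPKM in WT (log2 fold change -0.070). P4ha1, the iron-dependent catalytic subunit, ranged from 28.8 to 42.1 FPKM in the libraries labelled cKO and from 27.0 to 60.0 FPKM in WT, the widest spread of these 3.

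Aco1 (gene identifier 11428, chromosome 4, 40143265 to 40199009), the gene of IRP1, measured 30.1, 31.5 and 32.5 FPKM in the libraries labelled cKO, against 30.3, 31.4 and 31.4 FPKM in WT. The group ranges overlapped almost entirely. The log2 difference of Aco1 was 0.015 (SE 0.055, adjusted p = 0.947 in limma), with an interval of 92.6% to 110.2% of WT.

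Ireb2 (gene identifier 64602, chromosome 9, 54862658 to 54912534), the gene of IRP2, measured 21.1, 18.8 and 18.9 FPKM in the libraries labelled cKO, against 19.0, 20.9 and 19.1 FPKM in WT. In each group 1 library stood above the other 2, replicate 1 among those labelled cKO and replicate 2 among WT. The log2 difference of Ireb2 was -0.0055 (SE 0.069, adjusted p = 0.984 in limma), with an interval of 89.4% to 111% of WT. Aco1 over Ireb2 averaged 1.61 ± 0.16 in the libraries labelled cKO and 1.58 ± 0.071 in WT (exact two-sided permutation p = 0.9), so Aco1 was the more abundant sensor transcript in every library.

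Fbxl5 (gene identifier 242960, chromosome 5, 43744618 to 43782149), the iron-binding subunit of the ligase that marks IRP2 for degradation, measured 14.98, 14.1 and 14.1 FPKM in the libraries labelled cKO, against 14.4, 15.6 and 14.9 FPKM in WT. The groups overlapped, with cKO replicate 1 above WT replicates 1 and 3. The log2 difference of Fbxl5 was -0.053 (SE 0.061, adjusted p = 0.788 in limma), with an interval of 87.5% to 106% of WT. The rest of that ligase and its activating enzymes stood at 4 of 8 higher and 4 lower, with a median of 0.0068. None passed the threshold (0.0259% of all tested genes did), and 44.5% of all tested genes were higher. Skp1a, the adaptor that holds F-box proteins such as FBXL5, averaged 269 ± 6.32 FPKM in the libraries labelled cKO and 229 ± 18.4 FPKM in WT without overlap (log2 fold change 0.23, adjusted p = 0.275 in limma). Of the enzymes that activate the ligase by neddylation, Uba3 averaged 57.98 ± 1.93 FPKM in the libraries labelled cKO and 54.8 ± 1.25 FPKM in WT (log2 fold change 0.080), and Ube2m 91.8 ± 4.86 FPKM in the libraries labelled cKO and 95.1 ± 3.38 FPKM in WT (log2 fold change -0.052).

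Across the 6 genes other than the ferritin chains, the fitted levels ran from 95.6% to 104% of WT. Their unadjusted 95% intervals reached no lower than 86.7% and no higher than 113% of WT, so changes beyond these bounds lay outside the interval of each gene. Their coefficients of variation within a group were 1.15% to 6.74%.

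**Figure D4:**
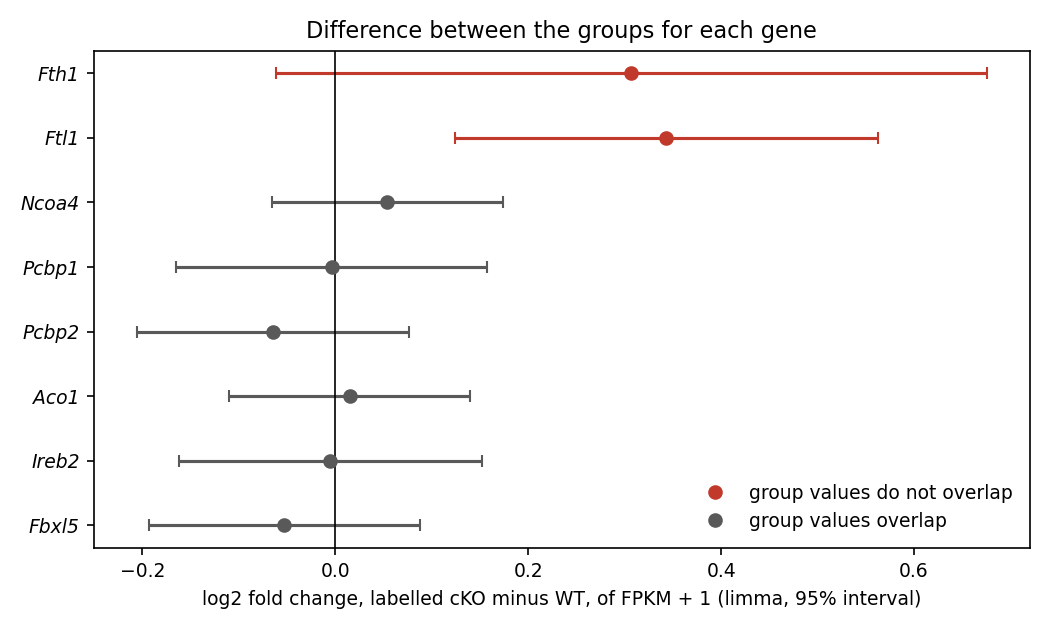
Log2 fold change of each gene (x axis, labelled cKO minus WT on the log2(FPKM + 1) scale) with its unadjusted 95% interval from limma, red where the values of the groups did not overlap. The interval of Ftl1 lay above 0, and the intervals of Fth1 and of the other 6 genes included 0.

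**Figure D5:**
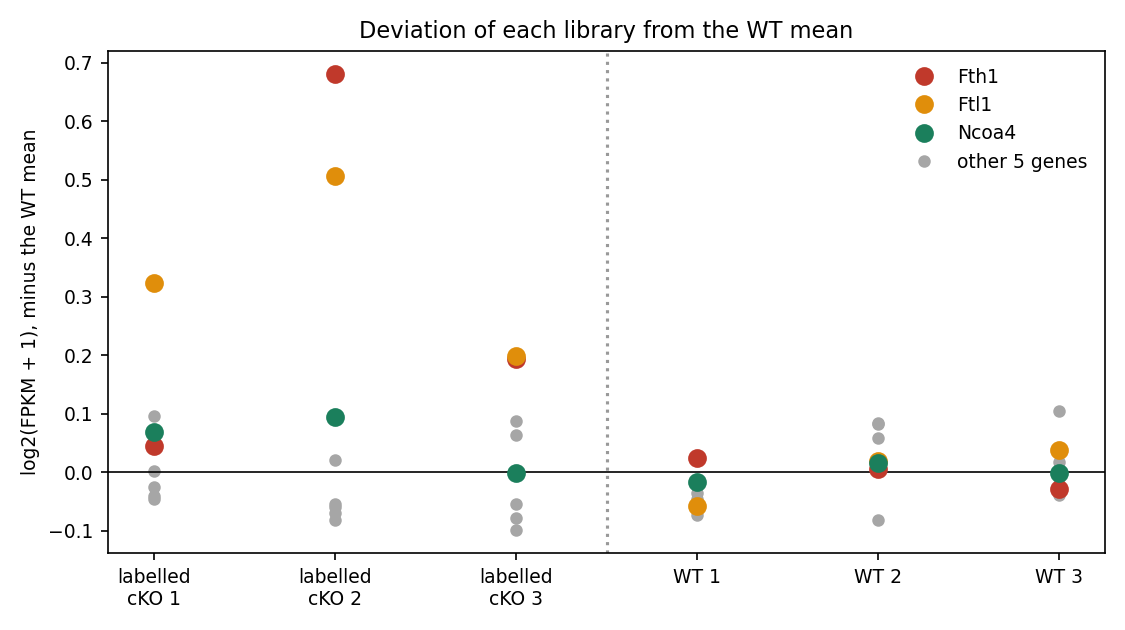
Level of each gene in each library (x axis) as its deviation from the WT mean on the log2(FPKM + 1) scale (y axis). Fth1 stood at 0.045, 0.68 and 0.19 and Ftl1 at 0.32, 0.51 and 0.20 in libraries 1 to 3 labelled cKO, while the other 6 genes stayed within 0.11 of 0 in all 6 libraries.

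The plot of deviations from the WT mean shows that the ferritin chains were both highest in cKO replicate 2 and stood furthest apart in cKO replicate 1. In cKO replicate 1 Ftl1 stood 0.32 above its WT mean on the log2 scale and Fth1 0.045, and in cKO replicate 3 both stood about 0.20 above. Likeness of profiles was measured as the root mean square difference of log2(FPKM + 1) over the 6 libraries, each profile centred on its own mean. Between the ferritin chains the difference was 0.14, and Fth1 ranked only 396th in nearness to Ftl1. For Fth1, 52 of the other tested genes lay nearer than Ftl1. The 4 nearest were Prdx6 (0.074), an antioxidant enzyme that reduces lipid peroxides, Rhou, Ttc12 and Rhpn1. Prdx6 measured 729, 1075 and 828 FPKM in the libraries labelled cKO, against 773, 745 and 770 FPKM in WT. Its high value in cKO replicate 2 follows from its choice by likeness to Fth1 and is no separate result. For Ftl1 the 4 nearest were Gclm (0.035), the modifier subunit of glutamate-cysteine ligase, which starts glutathione synthesis, Slc29a3, a lysosomal nucleoside carrier, the kinase Prkca and the receptor Mertk. Gclm measured 53.8, 60.5 and 49.3 FPKM in the libraries labelled cKO, against 41.4, 44.1 and 41.4 FPKM in WT. The libraries labelled cKO stood in the same order as for Ftl1, but Gclm was picked by its likeness to Ftl1 over these same libraries. For Ncoa4, whose profile was nearly flat, the 4 nearest were Mapk9 (0.013), Cryz, Cab39 and Lysmd1.

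Ferritin genes are also targets of NRF2, a transcription factor of the antioxidant response. Among 18 tested genes of that pathway, its regulators as well as its targets, 13 were higher and 5 lower in the libraries labelled cKO. Their median log2 fold change was 0.088, against -0.015 over all tested genes, of which 44.5% were higher. Only Hmox1, the enzyme that frees iron from heme, passed the test (0.0259% of all tested genes passed). It measured 118, 117 and 93.2 FPKM in the libraries labelled cKO, against 56.1, 58.0 and 57.1 FPKM in WT (log2 fold change 0.92, SE 0.091, adjusted p = 0.0253 in limma). The call was lost without cKO replicate 1 (adjusted p = 0.122 in limma), cKO replicate 2 (0.0887), WT replicate 1 (0.187) or WT replicate 2 (0.0933), at log2 fold changes of 0.86 to 0.93. Within the libraries labelled cKO, Hmox1 stood lowest in replicate 3, as Ftl1 did, whereas Fth1 was lowest in replicate 1. Gclm averaged 54.5 ± 5.64 FPKM in the libraries labelled cKO and 42.3 ± 1.55 FPKM in WT (log2 fold change 0.35, adjusted p = 0.194 in limma). Srxn1, which repairs oxidised peroxiredoxins, averaged 30.9 ± 4.60 FPKM in the libraries labelled cKO and 23.2 ± 2.11 FPKM in WT (log2 fold change 0.39, adjusted p = 0.242 in limma). NRF2 itself (Nfe2l2) averaged 60.3 FPKM in the libraries labelled cKO and 67.6 FPKM in WT.

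The promoters of 7 of the 8 genes were found in RefSeq (GRCm38.p6), as 11 windows from 250 bases before to 50 bases after an annotated start. The core of the antioxidant response element was searched on both strands as TGACNNNGC, which 12.4% of all such windows held. It was found in 1 window of Ncoa4 and in no window of either ferritin chain, and these windows do not reach regions further upstream. A window of each ferritin chain held TATAA on the gene's strand (17.5% of all windows) and CCAAT on either strand (37.4%). Counted from the annotated start, these TATAA matches lay after it, at 26 for Fth1 and at 17 for Ftl1. TATAA was not limited to the ferritin chains, since 1 window of Ncoa4 held it before the start, at -27. The CCAAT match of Fth1 lay at -7, and the 2 of Ftl1 lay further upstream.

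Other transcripts known to carry an iron-responsive element had mixed directions. The pattern searched for above matched 3 of the 8 listed genes, Slc40a1 and Alas2 in the 5′ and Tfrc in the 3′ untranslated region, and did not match the others, Epas1, Slc11a2 and Cdc42bpa among them. Of 6 tested genes 4 were higher and 2 lower, none past the threshold, with a median log2 fold change of 0.086. Among all tested genes 44.5% were higher and 0.0259% passed, with a median of -0.015. Tfrc, the transferrin receptor, whose 3′ elements make its transcript a readout of the iron regulatory proteins, was at 27.97 ± 2.40 FPKM in the libraries labelled cKO and 29.96 ± 8.48 FPKM in WT (log2 fold change -0.060, adjusted p = 0.929 in limma). Epas1, which encodes the hypoxia factor HIF-2α and is known for an element in its leader, measured 77.0, 70.8 and 76.5 FPKM in the libraries labelled cKO, against 56.0, 49.3 and 58.6 FPKM in WT. The groups did not overlap (log2 fold change 0.45, SE 0.075, adjusted p = 0.126 in limma). The iron importer Slc11a2 averaged 13.97 ± 0.15 FPKM in the libraries labelled cKO and 13.2 ± 0.33 FPKM in WT, and the kinase Cdc42bpa 16.3 ± 1.78 FPKM in the libraries labelled cKO and 14.7 ± 0.54 FPKM in WT. The iron exporter Slc40a1 was at 0.26 FPKM or less in every library and was not tested.

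Among 17 tested genes of iron import, export and heme release 9 were higher and 8 lower in the libraries labelled cKO. Their median was 0.015, against -0.015 over all tested genes, of which 44.5% were higher. Hmox1 alone passed the threshold, which 0.0259% of all tested genes did. Slc25a28, a mitochondrial iron carrier, averaged 10.2 ± 0.55 FPKM in the libraries labelled cKO and 12.2 ± 0.77 FPKM in WT (log2 fold change -0.23, adjusted p = 0.267 in limma). The zinc and iron carrier Slc39a14 averaged 20.3 ± 0.84 FPKM in the libraries labelled cKO and 18.3 ± 0.58 FPKM in WT (log2 fold change 0.14, adjusted p = 0.390 in limma).

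Assembly of iron-sulfur clusters decides whether the Aco1 product works as an enzyme or binds RNA. Of 14 tested assembly genes 7 were higher and 7 lower, none past the threshold, with a median of 0.022. For all tested genes the shares were 44.5% higher and 0.0259% past the threshold. The scaffold Iscu averaged 61.1 ± 2.98 FPKM in the libraries labelled cKO and 53.8 ± 8.19 FPKM in WT (log2 fold change 0.19), and the cytosolic reductase Ndor1 7.27 ± 0.15 FPKM in the libraries labelled cKO and 6.56 ± 0.50 FPKM in WT (log2 fold change 0.13).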

How the data were processed

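RNA of 6 mouse neurosphere libraries was measured; library data were analysed by the BGISEQ institute, per the labels' protocols. Per the file headers, the authors deposited FPKM, with 1 value for each gene in each library. The submitters' processing notes list Bowtie2 and GRCm38 (mm10). Counting tool, annotation, filters and depth: not given in the sources used here. Genes were matched by identifier to RefSeq GRCm38.p6 for coordinates. RefSeq lists 2 Fth1 and 3 Ftl1 pseudogenes outside the table, whose reads may be counted with the chains.

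The table was fitted as log2(FPKM + 1) with limma 3.58.1 in R 4.3.3 (intensity trend, two-sided), without covariates. P-values were adjusted by Benjamini-Hochberg over 11596 genes averaging 1 FPKM or more (threshold 0.05). A fold change on this scale understates that of low genes. Single values were compared by exact permutation (scipy 1.17.1). The members and lists were chosen with earlier results of these data known. Beyond the 8 genes, the text names the 3 genes of lowest p of each of 7 pathway lists, tested genes past the threshold and the 4 genes most alike in profile. Pcbp4, Tfrc, Nfe2l2 and Slc40a1 were named after their values were seen. Some items under these rules are not reported here. Apart from the markers named above, astrocyte markers summed to 3215 to 3450 FPKM in the libraries labelled cKO and 2649 to 3671 in WT. Gfap made up most of this sum. Oligodendrocyte lineage markers summed to 1201 to 1465 FPKM in the libraries labelled cKO and 1247 to 1715 in WT, mostly Olig1 and Olig2. Of these 8 markers 2 were higher and 6 lower, none past the threshold (all tested genes: 44.5% higher, 0.0259% past it). Neuron markers summed to 82.2 to 99.1 FPKM in the libraries labelled cKO and 82.5 to 89.9 in WT. Most of the neuron sum was Map2, at 70.8 to 84.8 FPKM over the 6 libraries, while Dcx, Rbfox3 and Stmn2 were at 0.47 FPKM or less.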

Additional observations from a re-analysis of the deposited data

How the results depend on the processing

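None of the 8 genes passed the threshold under any of 18 alternatives in limma (pseudocounts, filters, scaling, variance models, library weights, replicate block, Y-linked covariate, WT replicate 3 alone, each library left out). The lowest adjusted p was 0.0648, for Ftl1 with library weights, and the range over its alternatives was 0.0648 to 0.999. Fth1, Ftl1, Ncoa4, Pcbp2 and Fbxl5 kept their direction under all 18. Of all tested genes 3 passed the threshold, and 0 without the filter, with quantile normalization, without the trend, with the Y-linked covariate or against WT replicate 3 alone, 22 with the replicate block, 129 with library weights and 0 to 10 with a library left out (0 without cKO replicate 1 or WT replicate 1, 1 without cKO replicate 2 or 3, 10 without WT replicate 3). Hmox1 was no longer called under the first 5 of these settings (adjusted p 0.059 to 0.999). At an unadjusted p under 0.05 the count with all libraries was 1422.

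Signs turned where the fold change was near 0, and the cause was not tested. Pcbp1 stood at 0.00045 with quantile normalization, 0.020 with median scaling and 0.029 with library weights, and between -0.050 and 0.048 with a library left out. Ireb2 stood at 0.015 with quantile normalization or library weights, 0.019 with median scaling, 0.051 with the Y-linked covariate and 0.033 against WT replicate 3 alone, and between -0.056 and 0.037 with a library left out. Aco1 stood at -0.023 with the covariate and -0.0035 against WT replicate 3 alone, and between -0.0098 and 0.043 with a library left out. Against WT replicate 3 alone, log2 differences were 0.032 for Fth1 over Ftl1, -0.054 for Pcbp1 over Pcbp2 and -0.038 for Aco1 over Ireb2. With a library left out Fth1 over Ftl1 ran from -0.14 to 0.085, Pcbp1 over Pcbp2 from -0.021 to 0.12 and Aco1 over Ireb2 from -0.030 to 0.10. The ferritin sum ran from 0.16 to 0.42 and Ncoa4 per ferritin from -0.37 to -0.13.

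Likeness of the libraries followed replicate numbers only in part: deviations from the group means correlated at -0.043, 0.31 and 0.26 for numbers 1 to 3. Replicates 2 and 3 of both groups correlated best with their own number. In contrast, cKO replicate 1 correlated best with WT replicate 3 (0.17), and WT replicate 1 with cKO replicate 2 (0.12). With 3 libraries centred on each group mean, these values cannot decide whether libraries of 1 number share a batch. Both groups have 3 libraries, and depth is unknown.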
